A study of Mus musculus with 12 samples.

Results

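The genes of sterol and fatty acid synthesis that the SREBP transcription factors control were followed by bulk mRNA sequencing in mouse melanomas growing in the brain. They were chosen by name, and with earlier results of these data known. The list held 34 genes of the 54532 rows in the table of read counts: 19 of the cholesterol arm, 10 of the fatty acid arm and 5 SREBP regulators. All 34 had enough reads to be tested, together with 17320 rows in all. WT C57BL/6 mice carried B16-OVA cells, a mouse melanoma line that expresses ovalbumin, under the skin of the flank, and B16-OVA/Fluc cells, which also express firefly luciferase, were placed in the striatum 3 days later, so each tumor descends from 1 cell line. Each of 4 groups was represented by tumors of 3 different mice, all taken on day 8 after the intracranial implantation. CD8H, dNK and CD8L mice received anti-PD-1 and anti-CTLA-4 antibodies (PC blockade), which the design text places on days 5 and 7, and IgG mice received control antibody. dNK mice also received an antibody that depletes NK cells, named anti-Asialo-GM2 in the labels. The study told CD8H from CD8L by whether these tumors held many or few CD8+ T cells, so these 2 groups differ by an outcome and not by a treatment.

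Sterols and fatty acids are built from cytosolic acetyl-CoA. SREBP2, from Srebf2, mainly drives the cholesterol enzymes and SREBP1, from Srebf1, mainly the fatty acid enzymes. Both precursors sit in the endoplasmic reticulum membrane bound to SCAP, which carries them to the Golgi when sterols are low, where proteases release the active factor. INSIG proteins hold SCAP back when sterols are high, and Insig1 is itself an SREBP target, whereas Insig2 is much less dependent on SREBP. Melanoma cells, myelin-forming oligodendrocytes and astrocytes are all able to make cholesterol, and in a bulk sample fewer cells of a type and less RNA per cell cannot be told apart.

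Total counts ranged from 16336993 to 26416214 per library and mitochondrial genes took 1.65 to 3.66% of them, with the lowest share in the tumor numbered 1 of each group. Melanocyte lineage markers were detected in all 12 tumors, at summed levels of 9586 to 26869.7 CPM (counts scaled by library size, with TMM factors). The tumors differed in brain tissue, the 12 neuron markers summing to 462 to 2648 CPM, with the highest value of its group in CD8H tumor 2, CD8L tumor 3, IgG tumor 2 and dNK tumor 3. In the dNK tumors the 5 NK cell markers summed to 0.910 to 2.46 CPM, against 10.5 to 24.4 CPM in IgG tumors.

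Transcripts of sterol and fatty acid synthesis were lower in CD8H tumors when set against the mean of the dNK, CD8L and IgG tumors. Of the 34 genes, 27 were lower and 0 higher, where 11.9% of all tested genes were called lower and 14.4% higher (edgeR quasi-likelihood test, Benjamini-Hochberg adjusted p of at most 0.05 over all 17320 genes). All 34 fold changes were negative, with a median of -0.99 on the log2 scale, whereas the median over all tested genes was 0.05. For 25 genes the 3 CD8H tumors lay below all 9 other tumors, which held for 9.08% of all tested genes. As the 34 genes were chosen with earlier results of these data known, setting them against these shares is no independent test. The cholesterol arm had 15 of 19 genes lower (median -1.08), the fatty acid arm 8 of 10 (median -0.88) and the regulators 4 of 5 (median -0.75). The 7 genes that did not pass the test were Pmvk, Fdps, Tm7sf2 and Ebp of the cholesterol arm, Acss2 and Me1 of the fatty acid arm, and Insig2. When the libraries were scaled to their melanocyte lineage markers instead of by TMM, 14 genes were lower and 2, Ebp and Insig2, higher. That scaling moved the median of all tested genes to 0.73, and it called 0.745% of them lower and 60.6% higher.

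**Figure D1:**
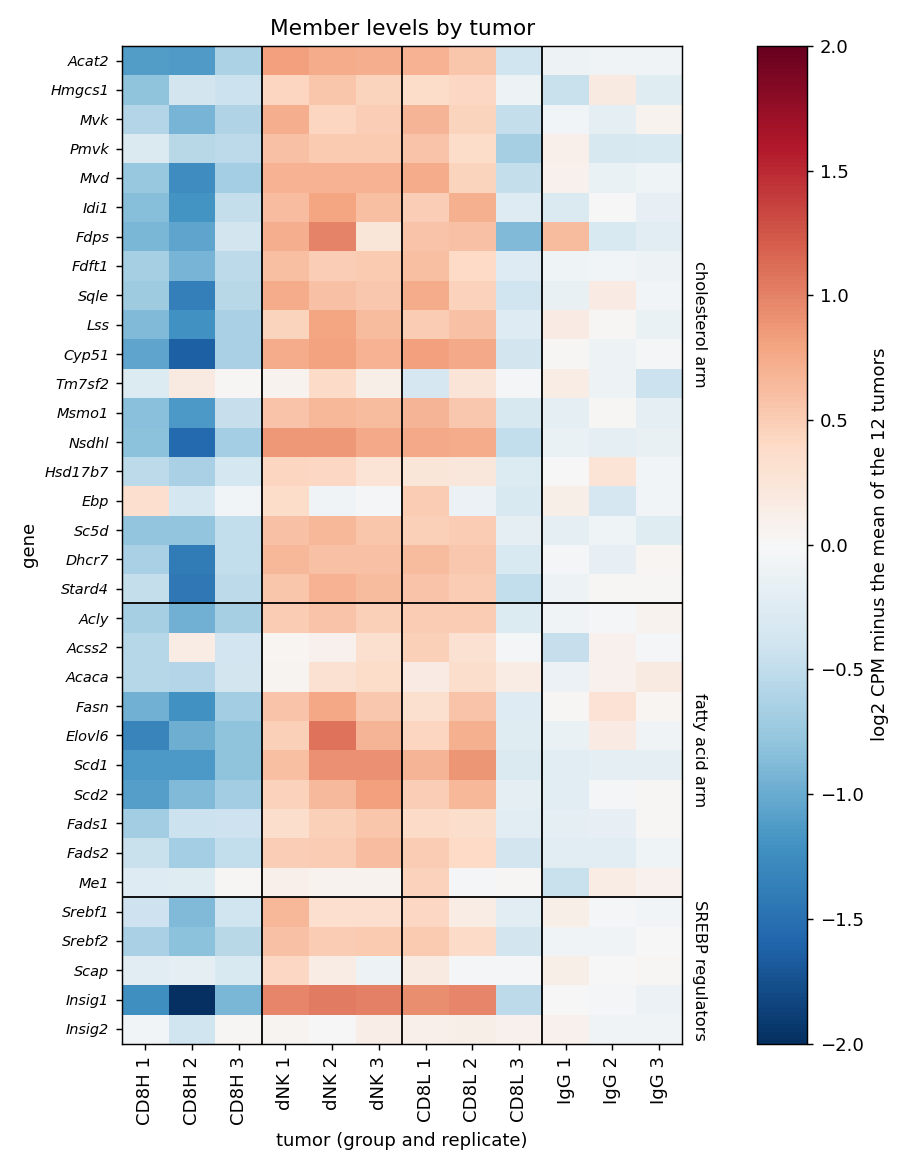
Level of each of the 34 genes (rows, in 3 blocks by arm) in each of the 12 tumors (columns, in 4 blocks by group), as log2 CPM minus the mean of that gene over the 12 tumors. The CD8H columns are blue in nearly every row, the dNK columns and CD8L tumors 1 and 2 red, and CD8L tumor 3 pale blue, while the rows of Tm7sf2, Ebp, Me1 and Insig2 show little contrast.

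The 4 groups followed one order for most genes. In 28 of the 34 genes the group means stood in the order CD8H, IgG, CD8L and dNK, low to high. CD8H had the lowest mean in 32 genes and dNK the highest in 31. On average over the 34 genes the log2 CPM came to 5.69, 5.48 and 5.88 for the CD8H tumors, 6.88, 6.92 and 6.86 in the dNK tumors, 6.86, 6.81 and 6.08 in the CD8L tumors and 6.30, 6.32 and 6.29 in the IgG tumors. In this average the dNK and the IgG tumors were thus nearly uniform, and the spread lay in the groups that the CD8+ T cell abundance separated. In the fatty acid arm alone only the CD8L tumors stood out, with an SD of 0.36 against 0.12 in CD8H, 0.10 in dNK and 0.12 in IgG tumors. CD8H tumor 2 was the lowest of all 12 tumors for 25 genes. CD8L tumor 3 was the lowest of its group for 32 genes and lower than all 3 IgG tumors for 24, whereas CD8L tumors 1 and 2 were both above all IgG tumors for 27. These orders and ranks were counted among the 34 genes only, so their shares over all tested genes are not known here.

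**Figure D2:**
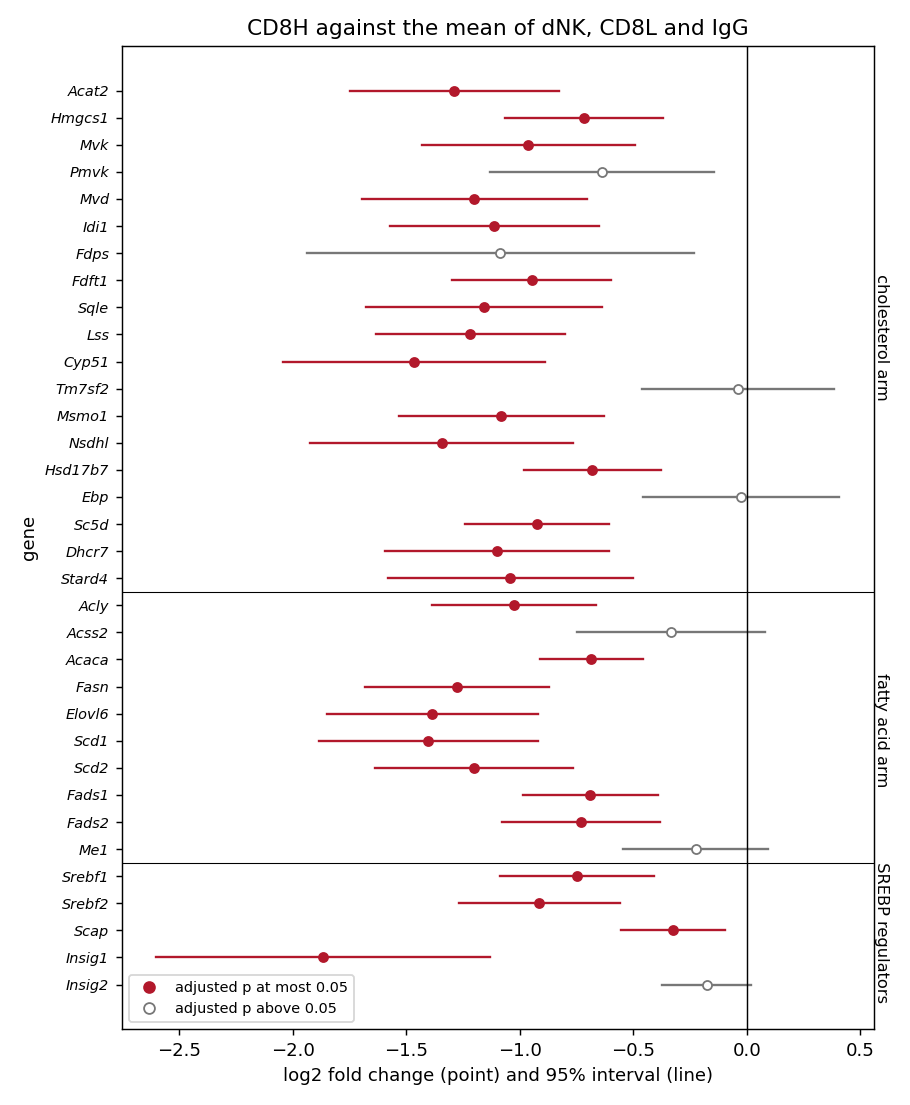
Log2 fold change (x axis, points) of CD8H against the mean of dNK, CD8L and IgG tumors with its 95% interval (lines) for the 34 genes (y axis), 3 tumors in each group. Filled red points are the 27 genes with an adjusted p of at most 0.05, open gray points the 7 others, and Insig1 lies farthest to the left at -1.87.

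Among the regulators, Insig1 had the largest fall of all 34 genes and its paralog Insig2 stayed nearly level. Insig1 (ENSMUSG00000045294, chr5:28071363-28078662, build GRCm38.p6 here and below), the INSIG protein gene that SREBP induces, had 78.1, 41.7 and 97.6 CPM in CD8H tumors, 361, 379 and 370.4 CPM in dNK tumors, 351, 360.3 and 128 CPM in CD8L tumors and 184, 179 and 170.1 CPM in IgG tumors. The CD8H tumors did not overlap with any other, the dNK tumors lay close to each other, and CD8L tumor 3 stood apart from the 2 other CD8L tumors and below the IgG tumors. Its level was lower in CD8H tumors (log2 fold change -1.87, standard error 0.33, adjusted p = 0.00305), with a 95% interval of -2.60 to -1.13. Insig2 (ENSMUSG00000003721, chr1:121304353-121332589), which also anchors SCAP in the endoplasmic reticulum, had 67.7, 53.5 and 71.5 CPM in CD8H tumors, 72.7, 69.6 and 76.7 CPM in dNK tumors, 75.6, 76.2 and 74.7 CPM in CD8L tumors and 74.2, 67.2 and 66.998 CPM in IgG tumors. All groups but CD8L overlapped with CD8H here, and the difference did not pass the test (log2 fold change -0.18, standard error 0.09, adjusted p = 0.154). The ratio of Insig1 to Insig2 CPM within a tumor was 1.15, 0.779 and 1.37 in CD8H tumors, 4.97, 5.45 and 4.83 in dNK tumors, 4.65, 4.73 and 1.72 in CD8L tumors and 2.49, 2.66 and 2.54 in IgG tumors, so CD8H and IgG tumors did not overlap in it.

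Both SREBP genes were lower in CD8H tumors. Srebf2 (ENSMUSG00000022463, chr15:82147181-82205379) had 151, 133 and 160.3 CPM in CD8H tumors, 356, 338 and 340.2 CPM in dNK tumors, 339.98, 307 and 183 CPM in CD8L tumors and 226, 226 and 235 CPM in IgG tumors. The 3 CD8H values were below the 9 others, the nearest of which was CD8L tumor 3 (log2 fold change -0.91, standard error 0.16, adjusted p = 0.00284). Srebf1 (ENSMUSG00000020538, chr11:60199089-60222581) had 119, 86.5 and 119.9 CPM in CD8H tumors, 252, 200.01 and 201 CPM in dNK tumors, 213, 176 and 135 CPM in CD8L tumors and 171, 154 and 153 CPM in IgG tumors. It showed the same placing of CD8H below all other tumors with a smaller fold change (log2 fold change -0.75, standard error 0.15, adjusted p = 0.00606), and its locus overlaps Rai1 on the other strand, so reads in the overlap could not be assigned if strand was not used in counting. Scap (ENSMUSG00000032485, chr9:110333288-110384950), the escort of both factors, had 68.5, 70.8 and 65.1 CPM in CD8H tumors, 108, 88.7 and 74.8 CPM in dNK tumors, 90.9, 79.2 and 78.2 CPM in CD8L tumors and 87.6, 80.8 and 81.4 CPM in IgG tumors. The 3 CD8H tumors were again the lowest of the 12, by a narrow margin under dNK tumor 3. Its difference was the smallest that passed the test (log2 fold change -0.33, standard error 0.10, adjusted p = 0.0404) and the call was lost without any 1 of 7 libraries (CD8H tumors 1, 2 and 3, CD8L tumors 1 and 2, IgG tumors 1 and 2), with fold changes between -0.37 and -0.28 over all 12 omissions. Counted per length, as FPKM, which the authors computed with a length per gene whose origin is not given in the sources used here, the median over the 12 tumors was 115 for Srebf1, 109 for Insig1, 104 for Srebf2, 89.4 for Insig2 and 79.2 for Scap.

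**Figure D3:**
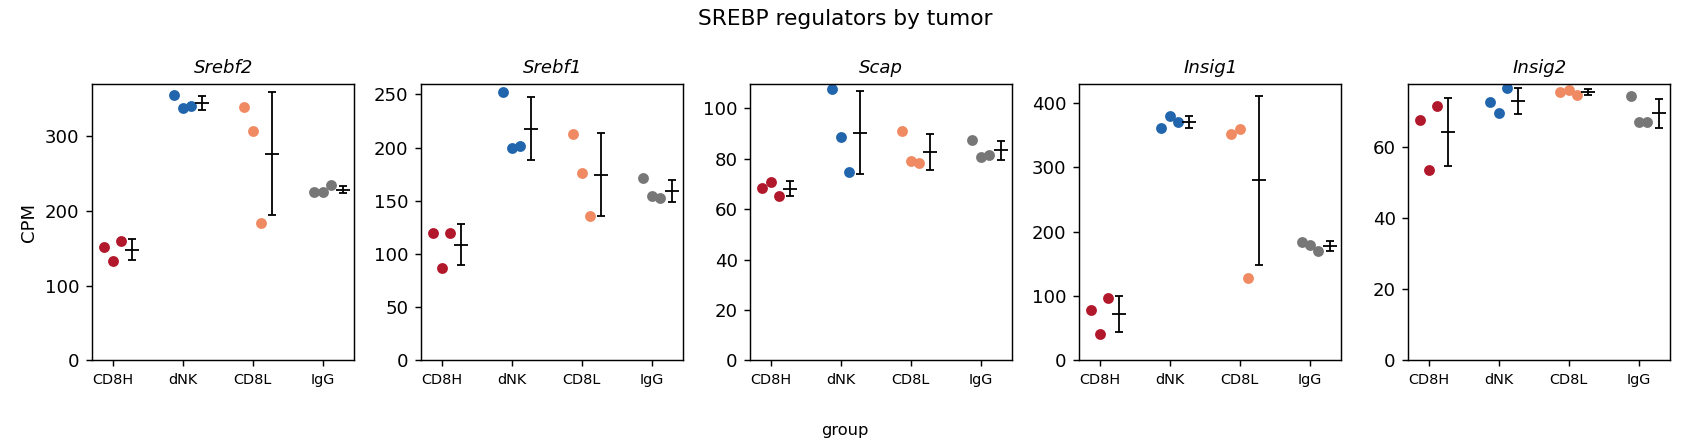
CPM (y axes, from 0) of the 5 regulators in the CD8H, dNK, CD8L and IgG tumors (x axes), 1 point per tumor, with the group mean and SD (n = 3) as the bar to the right. Insig1 and Srebf2 separate the CD8H tumors from all others, CD8L tumor 3 lies between them and the IgG tumors, and Insig2 runs from 53.5 to 76.7 CPM over all 12.

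The proteases, ubiquitin ligases and other proteins that act on SREBP, SCAP or INSIG were given by a list of 8 more genes, of which 3 were lower and 1 higher in CD8H tumors. Of all tested genes 11.9% were lower and 14.4% higher. Mbtps1, which encodes the site-1 protease that makes the first cut in SREBP, was lower (log2 fold change -0.41, standard error 0.09, adjusted p = 0.00935), as was Erlin2, a part of the complex that leads INSIG proteins to degradation (log2 fold change -0.35, standard error 0.08, adjusted p = 0.0120). Trim21, a cytosolic antibody receptor and ubiquitin ligase that interferon induces, was higher (log2 fold change 1.21, standard error 0.25, adjusted p = 0.00651). With scaling to melanocyte markers, under which 60.6% of all tested genes were higher, 0 of the 8 were lower and 3 higher.

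In the cholesterol arm the first steps, the squalene steps and the late sterol steps all had genes that were lower, and 4 genes did not pass the test. The 5 genes with the smallest p were Lss, Sc5d, Acat2, Fdft1 and Cyp51. Acat2 (ENSMUSG00000023832, chr17:12942890-12960747), the cytosolic thiolase that joins 2 acetyl-CoA at the start, had 26.4, 25.95 and 36.6 CPM in CD8H tumors, 101, 95.1 and 94.5 CPM in dNK tumors, 91.8, 83.6 and 43.1 CPM in CD8L tumors and 53.4, 53.98 and 54.03 CPM in IgG tumors. The IgG tumors lay within 1 CPM of each other, the CD8H tumors below all others, and CD8L tumor 3 between them (log2 fold change -1.29, standard error 0.21, adjusted p = 0.00195). Its neighbor Acat3 is a close copy, and at most 25 reads per library were counted there. Hmgcs1 (ENSMUSG00000093930, chr13:119690379-119708260), HMG-CoA synthase, fell less (log2 fold change -0.72, standard error 0.16, adjusted p = 0.00875) and CD8H tumors 2 and 3 overlapped with IgG tumor 1, at 79.8, 108 and 103 CPM in CD8H tumors against 102, 158 and 118 CPM in IgG tumors. The mevalonate kinase Mvk (-0.96), the decarboxylase Mvd (-1.20) and the isomerase Idi1 (-1.11) passed the test, and phosphomevalonate kinase, Pmvk, did not (log2 fold change -0.64, adjusted p = 0.0565), with CD8L tumor 3 the lowest of all 12 for it. Fdps, farnesyl diphosphate synthase, was counted 21 to 69 times per library, the lowest of the 34 genes, and since the table also lists a pseudogene of it, with which it could share reads, its value of -1.09 (adjusted p = 0.0596) is uncertain. The Fdps locus also overlaps the protein-coding Gm43738 on the same strand. Reads in that overlap could not be assigned, so the low count need not mean low expression.

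From squalene on, Fdft1 (ENSMUSG00000021273, chr14:63145150-63179578), squalene synthase, had 44.6, 36.98 and 49.2 CPM in CD8H tumors, 108, 99.4 and 101 CPM in dNK tumors, 107, 93.1 and 59.2 CPM in CD8L tumors and 66.3, 68.1 and 65.8 CPM in IgG tumors. No other tumor reached the CD8H values, and the dNK tumors were about level with CD8L tumors 1 and 2 (log2 fold change -0.95, standard error 0.16, adjusted p = 0.00234). The locus overlaps Ctsb on the other strand, and the median count per library was 1359.5 for Fdft1 and 22650.5 for Ctsb, so any shared reads could weigh on it. Sqle, the squalene epoxidase that limits this part of the path, was lower as well (log2 fold change -1.16, standard error 0.24, adjusted p = 0.00584). Lss (ENSMUSG00000033105, chr10:76531588-76557138), lanosterol synthase, which closes the sterol rings, had 42.2, 33.6 and 49.8 CPM in CD8H tumors, 106, 134 and 121 CPM in dNK tumors, 111, 117 and 64.9 CPM in CD8L tumors and 86.7, 78.8 and 70.6 CPM in IgG tumors. CD8L tumor 3 was the lowest of the 9 other tumors and stood above all CD8H tumors (log2 fold change -1.22, standard error 0.19, adjusted p = 0.00158). Cyp51 (ENSMUSG00000001467, chr5:4081145-4104746), the lanosterol demethylase, had 89.96, 60.3 and 119 CPM in CD8H tumors, 315, 329.6 and 303 CPM in dNK tumors, 330.3, 317 and 146 CPM in CD8L tumors and 191, 175 and 184 CPM in IgG tumors. It had the largest fold change of this arm (log2 fold change -1.47, standard error 0.26, adjusted p = 0.00303), and its CD8H tumors differed from each other by more than CD8L tumor 3 differed from the nearest of them. Akap9 overlaps its locus on the other strand. Nsdhl (-1.34), Msmo1 (-1.08) and Hsd17b7 (-0.68), which together take off the methyl groups at carbon 4, all passed the test.

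The late steps split. Sc5d (ENSMUSG00000032018, chr9:42251595-42264256), the desaturase before the last step, had 45.1, 45.1 and 55.8 CPM in CD8H tumors, 117, 123 and 114 CPM in dNK tumors, 109, 111 and 68.3 CPM in CD8L tumors and 68.9, 73.3 and 65.7 CPM in IgG tumors. CD8L tumor 3 stood level with the IgG tumors for this gene, and CD8H was below all of them (log2 fold change -0.92, standard error 0.14, adjusted p = 0.00159). Dhcr7, which carries out the last reduction, fell by a similar amount (log2 fold change -1.10, standard error 0.22, adjusted p = 0.00571), as did Stard4, a carrier of cholesterol between membranes (log2 fold change -1.04, standard error 0.24, adjusted p = 0.0116). Ebp (ENSMUSG00000031168, chrX:8185329-8193512), the isomerase between the methyl removal and Sc5d, had 62.3, 38.6 and 47.7 CPM in CD8H tumors, 63.8, 47.3 and 47.9 CPM in dNK tumors, 69.8, 45.3 and 39.8 CPM in CD8L tumors and 53.8, 39.1 and 47.5 CPM in IgG tumors. The tumor numbered 1 was the highest of every group and the groups overlapped (log2 fold change -0.02, standard error 0.20, adjusted p = 0.932). Tm7sf2 (ENSMUSG00000024799, chr19:6062821-6077197), a sterol reductase that acts after Cyp51 at a step it shares with Lbr, had 7.01, 9.57 and 8.63 CPM in CD8H tumors, 8.88, 11.1 and 9.19 CPM in dNK tumors, 6.70, 10.1 and 8.33 CPM in CD8L tumors and 9.42, 7.87 and 6.30 CPM in IgG tumors. Per length its median of 8.16 FPKM was the lowest of the arm after Fdps, all 4 groups overlapped and the difference did not pass the test (log2 fold change -0.04, standard error 0.19, adjusted p = 0.894), with an interval of -0.46 to 0.39. The Tm7sf2 locus overlaps Vps51 and Gm28374 on the same strand, so reads in the overlap could not be assigned even if strand was used. Its median count per library was 177.5, so its level is less certain than that of the other late genes. For Ebp the interval was -0.46 to 0.41, which leaves out changes of the size seen for Sc5d or Dhcr7. Outside the 34 genes, Acat1 (-0.89), the mitochondrial thiolase, and Lbr (-0.58) were also lower. The branch to isoprenoids, dolichol and ubiquinone had 4 of 10 genes lower with small changes, led by Fnta (-0.60), Pdss2 (-0.50) and Nus1 (-0.35), and a list median of -0.22, and on the melanocyte scale 0 of 10 were lower and 6 higher, about the 60.6% of all tested genes.

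Promoter sequences are shown for 4 genes that were lower in CD8H tumors and that carry the core of a sterol regulatory element, the DNA motif SREBP binds, and for Insig1, which was added after its values were seen. Windows of 300 bases, 250 before to 50 after the start of transcription, were found in RefSeq (GRCm38.p6) for 27 of the 34 genes and not used for Fads1, Fdft1, Stard4, Sqle, Scd2, Fdps and Scd1. The 250 bases before the start are printed 5′ to 3′ on the strand of the gene. Capitals mark TCACNCC or its reverse complement in the first 4, and the boxes CACGTG and CCAAT and GGGCGG or their reverse complements in Insig1.
Acat2 (chr17:12960726-12960975, minus strand): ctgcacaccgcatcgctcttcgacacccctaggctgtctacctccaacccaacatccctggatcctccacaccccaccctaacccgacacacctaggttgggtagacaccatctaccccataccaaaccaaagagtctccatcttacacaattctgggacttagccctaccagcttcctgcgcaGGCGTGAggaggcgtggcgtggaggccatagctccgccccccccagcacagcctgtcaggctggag
Srebf2 (chr15:82147019-82147268, plus strand): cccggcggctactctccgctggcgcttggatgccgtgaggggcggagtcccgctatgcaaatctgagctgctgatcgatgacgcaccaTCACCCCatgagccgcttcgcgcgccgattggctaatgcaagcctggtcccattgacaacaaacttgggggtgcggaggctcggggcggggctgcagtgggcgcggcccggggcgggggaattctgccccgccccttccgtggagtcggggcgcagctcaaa
Msmo1 (chr8:64733579-64733828, minus strand): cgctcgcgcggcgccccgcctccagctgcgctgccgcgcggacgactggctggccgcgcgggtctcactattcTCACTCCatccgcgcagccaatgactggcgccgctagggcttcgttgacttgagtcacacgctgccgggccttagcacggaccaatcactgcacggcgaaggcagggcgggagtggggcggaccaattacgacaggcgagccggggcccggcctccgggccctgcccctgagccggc
Hmgcs1 (chr13:119690101-119690350, plus strand): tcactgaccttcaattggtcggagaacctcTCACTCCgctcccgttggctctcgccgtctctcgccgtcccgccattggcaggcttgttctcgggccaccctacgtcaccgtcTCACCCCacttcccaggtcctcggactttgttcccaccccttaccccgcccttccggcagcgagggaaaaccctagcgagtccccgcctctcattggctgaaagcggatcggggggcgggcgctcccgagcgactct
Insig1 (chr5:28071162-28071411, plus strand): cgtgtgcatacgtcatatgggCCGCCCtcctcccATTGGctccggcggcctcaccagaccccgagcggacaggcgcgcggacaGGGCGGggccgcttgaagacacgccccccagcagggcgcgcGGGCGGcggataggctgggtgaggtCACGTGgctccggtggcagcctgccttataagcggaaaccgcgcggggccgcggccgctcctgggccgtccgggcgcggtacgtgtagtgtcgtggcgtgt

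Motifs were searched on both strands of the 300 bases, and 8 were tried. TCACNCC was in 5 of the 27 genes (18.5%), Insig2 being the fifth, and in 17.6% of all 27025 genes with a window, so these letters were no more frequent here than elsewhere. Its longer forms TCACNCCAC and ATCACNCC, which contain or overlap it, were in Hmgcs1 and in Srebf2 alone, against 1.44% and 2.94% of all genes. CCAAT, the box bound by NF-Y, was in 22 of the 27 genes (81.5%), against 41.1% of all genes. GGGCGG, the box bound by Sp1, was in 23 (85.2%), against 38.2%. NF-Y and Sp1 are factors that SREBP is known to work with. The 27025 genes were taken whether or not they were expressed in these tumors, and the cause of the higher shares was not tested. CACGTG, the E-box, was in 5 (18.5%), against 8.09%, and its extension TCACGTGA in 0, against 1.12%. A pair of GGTCA copies with 4 bases between them was in 0 of the 27 and in 0.0518% of all genes. This is not the spacing of the repeat that LXR binds, and LXR sites were not searched. Ebp and Tm7sf2, which did not pass the test, held CCAAT and GGGCGG, and Acaca and Elovl6, which did, held none of the 8. These are matches of letters in 1 window and were not measured as bound.

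The fatty acid arm was lower at each of its main steps. Acly (ENSMUSG00000020917, chr11:100476353-100528000), ATP citrate lyase, which supplies the acetyl-CoA of both arms, had 277, 226 and 277 CPM in CD8H tumors, 624, 649 and 608 CPM in dNK tumors, 628, 625 and 365 CPM in CD8L tumors and 419.6, 433 and 461 CPM in IgG tumors. CD8H lay below all other tumors, with the dNK tumors and CD8L tumors 1 and 2 more than 2 times as high as any CD8H tumor (log2 fold change -1.02, standard error 0.16, adjusted p = 0.00180). Acaca (ENSMUSG00000020532, chr11:84129672-84401651), acetyl-CoA carboxylase, which commits acetyl-CoA to fatty acids, had 123, 122 and 142 CPM in CD8H tumors, 189.98, 226 and 236 CPM in dNK tumors, 206, 235 and 203 CPM in CD8L tumors and 169.6, 195 and 209 CPM in IgG tumors. Here the 9 other tumors were closer together and CD8L tumor 3 stood with them (log2 fold change -0.68, standard error 0.10, adjusted p = 0.00136). Fasn (ENSMUSG00000025153, chr11:120805846-120824547), fatty acid synthase, had 309, 260.3 and 375 CPM in CD8H tumors, 901, 1038 and 874 CPM in dNK tumors, 752, 893 and 507 CPM in CD8L tumors and 616, 739 and 621 CPM in IgG tumors. It had the smallest p of all 34 genes and the 12 tumors split without overlap (log2 fold change -1.28, standard error 0.18, adjusted p = 0.00120).

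The genes that lengthen and desaturate the product moved with Fasn. Elovl6 (ENSMUSG00000041220, chr3:129532355-129638495), which lengthens palmitate, had 28.9, 36.6 and 41.4 CPM in CD8H tumors, 100.5, 153 and 115 CPM in dNK tumors, 96.8, 118 and 60.9 CPM in CD8L tumors and 65.8, 80.4 and 68.5 CPM in IgG tumors. The dNK tumors spread more widely than the IgG tumors, yet none came near the CD8H tumors (log2 fold change -1.39, standard error 0.21, adjusted p = 0.00144). Scd1 (ENSMUSG00000037071, chr19:44394451-44407709), a stearoyl-CoA desaturase that makes oleate, had 133, 132 and 168 CPM in CD8H tumors, 448, 554 and 555 CPM in dNK tumors, 469, 542 and 240.1 CPM in CD8L tumors and 251, 260.2 and 257 CPM in IgG tumors. It had the largest fold change of the arm (log2 fold change -1.40, standard error 0.22, adjusted p = 0.00160), and CD8L tumor 3 was below the IgG tumors. Scd2, its neighbor on chromosome 19 and the most abundant of the 34 genes per length (median 314 FPKM, against 54.7 for Scd1), fell nearly as much (log2 fold change -1.20, standard error 0.20, adjusted p = 0.00209). The Scd genes are close copies, and Scd3 and Scd4 were counted at most 44 and 8 times per library. Fads1 (-0.69) and Fads2 (-0.73), the desaturases of polyunsaturated fatty acids, were lower with smaller changes.

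Acss2 (ENSMUSG00000027605, chr2:155517948-155585724) and Me1 (ENSMUSG00000032418, chr9:86581371-86695953), which make acetyl-CoA from acetate and NADPH from malate, did not pass the test. Acss2 had 11.9, 19.7 and 13.7 CPM in CD8H tumors, 18.2, 18.9 and 22.2 CPM in dNK tumors, 24.6, 21.97 and 17.4 CPM in CD8L tumors and 12.9, 18.7 and 17.3 CPM in IgG tumors. CD8H tumor 2 was higher than 6 of the 9 other tumors while CD8H tumors 1 and 3 were low (log2 fold change -0.33, standard error 0.19, adjusted p = 0.193), and its locus overlaps Ggt7 and Gss on the other strand, both with more reads. Me1 had 33.9, 34.1 and 41.02 CPM in CD8H tumors, 43.4, 42.5 and 42.4 CPM in dNK tumors, 55.6, 39.9 and 41.3 CPM in CD8L tumors and 29.6, 44.6 and 42.97 CPM in IgG tumors. The 4 groups overlapped, the lowest value being in IgG tumor 1 (log2 fold change -0.22, standard error 0.14, adjusted p = 0.251). Of 16 other genes of fatty acid and triglyceride synthesis 2 were lower, Acsl3 (-0.96), which activates fatty acids, and Lpin1 (-0.62), a phosphatidate phosphatase, and 1 was higher, Mlxipl (1.15), the carbohydrate-responsive factor ChREBP, at 0.485 to 4.12 CPM. Of 12 tested genes of fatty acid uptake and oxidation 4 were lower, among them Acadm (-0.57), Hadha (-0.59) and Cpt2 (-0.51), mitochondrial enzymes of beta-oxidation, and 0 higher. Of all tested genes 11.9% were lower and 14.4% higher, so the counts among the 16 do not set that list apart. When melanocyte markers set the scale 0 of the 16 were lower and 11 higher, and 0 of the 12 lower and 7 higher, close to the 60.6% of all tested genes.

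Uptake and export genes showed a split. Among genes of sterol uptake and lysosomal export, Scarb1 (-1.04), the HDL receptor, and Npc1 (-0.43), which exports cholesterol from lysosomes, were lower in CD8H tumors and Npc2 (0.56), which works with Npc1, was higher. Of 12 genes of LXR, the oxysterol receptor that drives cholesterol efflux, and of its path 5 were higher and 1, Lpcat3, lower. The shares of all tested genes were 14.4% higher and 11.9% lower. Nr1h3 (log2 fold change 2.69, standard error 0.30, adjusted p = 0.000566), which encodes LXRα, had 17.8, 11.1 and 9.65 CPM in CD8H tumors, 1.14, 0.607 and 1.20 CPM in dNK tumors, 2.36, 1.39 and 2.61 CPM in CD8L tumors and 5.52, 2.61 and 3.03 CPM in IgG tumors. Abcg1 (log2 fold change 1.87, standard error 0.27, adjusted p = 0.00115), an exporter of cholesterol, had 30.04, 47.8 and 22.1 CPM in CD8H tumors, 4.74, 3.52 and 5.69 CPM in dNK tumors, 8.76, 6.84 and 16.2 CPM in CD8L tumors and 13.3, 17.2 and 15.4 CPM in IgG tumors. For both, all 3 CD8H tumors were above the 9 others and the dNK tumors were lowest. Mylip (0.75), a ubiquitin ligase that LXR induces, Abca1 (1.44) and Cyp27a1 (1.87) were also higher. On the melanocyte scale the LXR list had 0 lower and 11 higher of 12, beside 60.6% of all tested genes. Macrophage and monocyte markers, 8 of 10 of which were higher in CD8H tumors, moved with the LXR genes, and their part in this was not tested.

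Immune, melanocyte and cell cycle markers changed between the same groups as the synthesis genes. All 8 T cell markers were higher in CD8H tumors (median 4.23), at summed levels of 154 to 445 CPM in CD8H tumors, 0.728 to 8.01 in dNK tumors, 9.18 to 39.2 in CD8L tumors and 26.0005 to 39.7 in IgG tumors, with Cd3d, Cd3g, Cd8b1 and Trac at 0 in dNK tumor 2. Since the groups were set by CD8+ T cells, this is no separate finding. The macrophage and monocyte markers (median 1.47) summed to 1286 to 2009 CPM in CD8H tumors, 182 to 549 in dNK tumors, 450.3 to 855 in CD8L tumors and 645 to 1095 in IgG tumors, none of the 10 being at 0. Of 12 melanocyte lineage markers 3 were lower and 0 higher (median -0.45), at 9586 to 17898 CPM in CD8H tumors, 21481 to 24494 in dNK tumors, 20813 to 26869.7 in CD8L tumors and 18858 to 21506 in IgG tumors. DESeq2 called 7 of the 12 lower and limma voom 5. Of 8 proliferation markers 4 were lower (median -0.61), at 990.1 to 1854 CPM in CD8H tumors, 2514 to 2641 in dNK tumors, 1984 to 2566 in CD8L tumors and 2001 to 2280.4 in IgG tumors. DESeq2 and limma voom each called all 8 lower, where they called 17.9 and 18.9% of all tested genes lower. CD8H tumor 2 was the lowest of all 12 tumors for both lists, at 9586 CPM of melanocyte and 990.1 CPM of proliferation markers. Without it and CD8L tumor 3 the list medians were -0.24 and -0.38, with 4 of 12 and 5 of 8 markers lower. The medians of the cholesterol arm, the fatty acid arm and the regulators were then -0.91, -0.86 and -0.62. Among the other lists, 4 of 6 microglia (median 1.22), 3 of 5 fibroblast (1.40), 4 of 6 dendritic cell (2.45), all 4 B cell (2.83) and all 5 NK cell markers (2.66) were higher, and of 5 endothelial markers 1, Tie1, was lower (-0.27). The part of these cell types in the fall of the synthesis genes was not tested.

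Neuron markers varied widely within the groups. By edgeR 0 of the 12 passed the test and 0 reached an unadjusted p of 0.05 (DESeq2 called 0 and limma voom 2 higher), all 12 had a positive fold change (median 1.36), and they summed to 845 to 2648 CPM in CD8H tumors, 462 to 801 in dNK tumors, 467 to 1891 in CD8L tumors and 605 to 1966 in IgG tumors. In the CD8L group tumor 3 had both the highest neuron level (6.60 mean log2 CPM, against 2.97 and 3.61) and the lowest synthesis level. By mean log2 CPM of the 34 genes, the tumor with the highest neuron level of its group was also lowest in the CD8H and dNK groups, and highest in the IgG group. In the dNK group the margin was small (6.86 against 6.88 and 6.92), and by summed CPM dNK tumor 3 was the highest. In the fatty acid arm alone CD8H tumor 2 (6.76) lay above CD8H tumor 1 (6.69), and dNK tumor 3 (7.99) above dNK tumor 1 (7.83). Of 10 oligodendrocyte markers 0 passed the test by edgeR, DESeq2 or limma voom, 1 reached an unadjusted p of 0.05 by edgeR and all 10 had a positive fold change (median 1.28), at summed levels of 315 to 2748 CPM in CD8H tumors, 382 to 703 in dNK tumors, 265 to 2175 in CD8L tumors and 626 to 1296 in IgG tumors. Of 8 astrocyte markers 1, S100b, was lower by edgeR, and 7 had a positive fold change that did not pass (median 1.18). By edgeR 4 of the 8 reached an unadjusted p of 0.05. DESeq2 called 1 lower and 2 higher, and limma voom 1 lower and 5 higher. The astrocyte markers summed to 893 to 2425 CPM in CD8H tumors, 481 to 829.9 in dNK tumors, 453 to 1596 in CD8L tumors and 502 to 1899 in IgG tumors. The part of these brain cells in the synthesis level was not tested beyond the neuron covariate. With the neuron level as a covariate 26 of the 34 genes were lower and 0 higher, where 10% of all tested genes were lower and 14.7% higher.

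**Figure D4:**
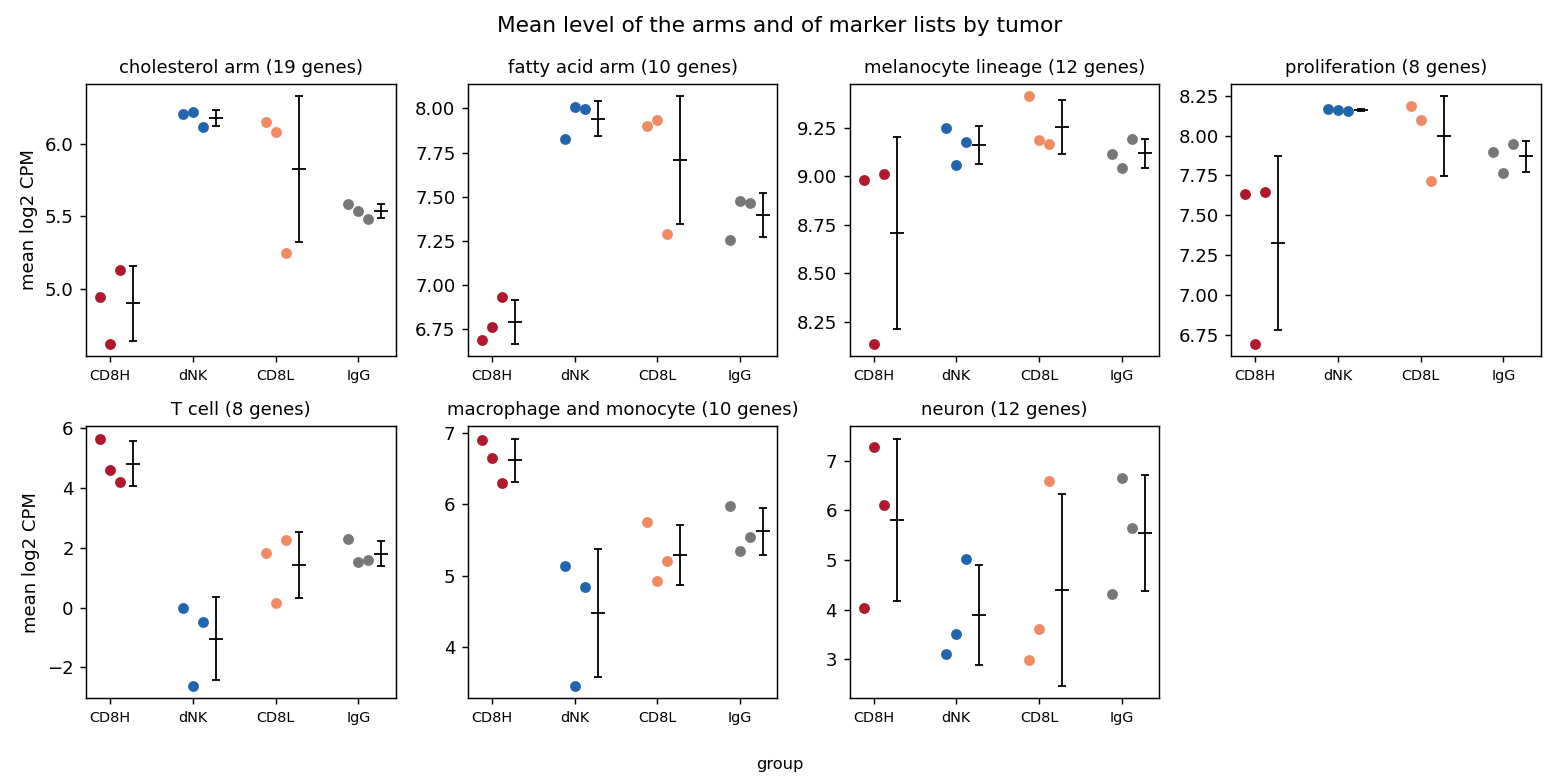
Mean log2 CPM (y axes, each with its own range) of the cholesterol arm, the fatty acid arm and 5 marker lists in the CD8H, dNK, CD8L and IgG tumors (x axes), 1 point per tumor, with the group mean and SD (n = 3) to the right. Both arms are lowest in the CD8H tumors and highest in the dNK tumors and CD8L tumors 1 and 2, T cell and macrophage markers run the other way between CD8H and dNK, and neuron markers vary within each group.

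Against single groups the fall was called in 2 of 3 comparisons, which share the CD8H tumors and so are not separate evidence. Against the dNK tumors 29 of 34 genes were lower and 0 higher in CD8H tumors (median -1.27), with 14.6% of all tested genes lower and 15.7% higher. The 5 that did not pass were Tm7sf2, Ebp, Acss2, Me1 and Insig2. The fold change was -2.35 for Insig1, -1.85 for Scd1, -1.81 for Cyp51 and -1.80 for Nsdhl. Against the CD8L tumors, which had the same treatment, 26 genes were lower and 0 higher (median -0.99), with 5.16% of all tested genes lower and 6.03% higher. Insig1 (-1.95), Cyp51 (-1.56) and Scd1 (-1.53) had the largest differences. This count depended on the libraries in the fit: it was 0 without CD8H tumor 1, CD8L tumor 1 or CD8L tumor 2, 12 without CD8H tumor 2 (1.35% of all tested genes), 28 without CD8L tumor 3 (9.75%) and 0 in a fit of the 6 tumors alone, where 0 of all tested genes were called either. Without CD8H tumor 1 only 1 of all tested genes was called lower and 1 higher. Without CD8L tumor 1 or CD8L tumor 2, 0 of all tested genes were called, so these losses were not particular to the 34.

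Against the IgG tumors 0 of 34 genes were called in CD8H tumors, where 0.167% of all tested genes were called lower and 0.577% higher. The fold changes were negative for 32 genes, with a median of -0.65, and 25 reached an unadjusted p of 0.05 in the direction of lower, which 8.36% of all tested genes had. The CD8H tumors were below all IgG tumors for 27 genes, against 13.2% of all tested genes. Insig1 (-1.30, standard error 0.37, adjusted p = 0.0941), Fasn (-1.07, adjusted p = 0.0502) and Cyp51 (-1.03, adjusted p = 0.0955) had the largest differences, and Ebp (0.08) and Tm7sf2 (0.10) were the 2 above 0. DESeq2 called 21 of the 34 lower, where it called 4.51% of all tested genes lower, limma voom 20 (5.32%) and edgeR with the neuron covariate 20 (2.58%). Without CD8L tumor 3, which does not enter the contrast but the estimate of spread, edgeR called 15 (0.89%).

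In dNK tumors the same genes tended to lie above the IgG tumors without passing the test. None was called, where 0.0173% of all tested genes were called lower and 0% higher. All 34 fold changes were positive (median 0.62, against 0.01 over all tested genes), 25 reached an unadjusted p of 0.05, against 5.39% of all tested genes in this direction, and for 26 the 3 dNK tumors were above the 3 IgG tumors, against 17.2%. Insig1 had a log2 fold change of 1.06 (standard error 0.36, adjusted p = 0.250), Scd1 of 1.02 (adjusted p = 0.151) and Nsdhl of 0.99 (adjusted p = 0.205). DESeq2 called 14 of the 34 higher, where it called 1.19% of all tested genes higher, limma voom 23 (3.75%) and an edgeR fit of these 6 tumors alone 11 (0.145%). The median fold change of the neuron markers was -1.87, of the macrophage and monocyte markers -1.14, of the NK cell markers -4.96 and of the proliferation markers 0.31, and their part in the difference was not tested.

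Between dNK and CD8L tumors, which differ by the depleting antibody and by the choice of CD8L tumors for few T cells, 0 of 34 genes were called by edgeR, DESeq2 or limma voom, as were 0 of all tested genes by edgeR and limma voom, while DESeq2 called 149 of them lower and 9 higher, and 0 of the 34 reached an unadjusted p of 0.05. The median was 0.29, and the 95% interval of Insig1 ran from -0.39 to 1.20, so a change of the size seen against CD8H tumors (-2.35) in either direction lay outside it. Between CD8L and IgG tumors 0 genes were called by any of the 3 tools, while Scd1 (0.70) and Sc5d (0.47) were the 2 genes at or under an unadjusted p of 0.05. The median was 0.35, with 33 of 34 above 0 and in the mean level CD8L tumor 3 lay on the far side of the IgG tumors from CD8L tumors 1 and 2.

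**Figure D5:**
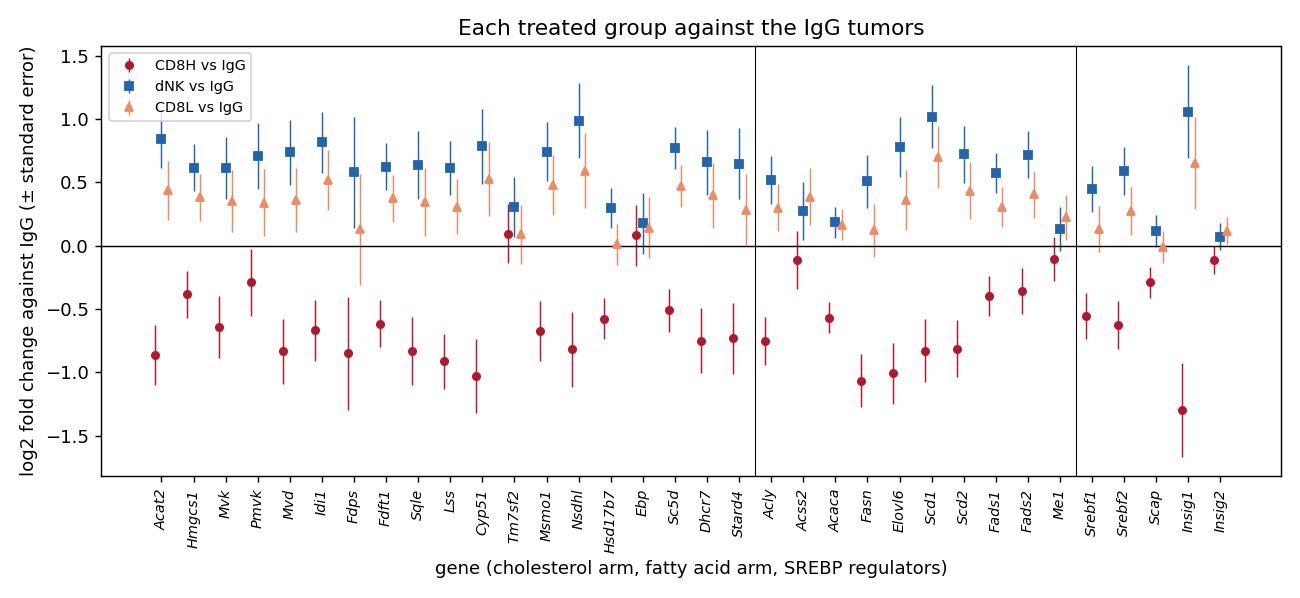
Log2 fold change against the IgG tumors (y axis, ± standard error) of the 34 genes (x axis, in 3 blocks by arm) for CD8H (circles), dNK (squares) and CD8L tumors (triangles), 3 tumors in each group, the IgG tumors being shared by all. CD8H values lie below 0 for all but Tm7sf2 and Ebp, dNK values above 0 for all 34, and CD8L values mostly between 0 and the dNK values.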

How the data were processed

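Poly-A RNA of 12 intracranial tumors was sequenced from both ends. The authors used STAR 2.6.1d for alignment (GRCm38.p6), StringTie 1.3.3b for assembly, featureCounts 1.5.0-p3 for the deposited counts per gene and DESeq2 1.26.0 for testing. The authors also deposited FPKM, which equals the count divided by 1 length per gene and by the library total. Whether counting used strand is not given in the sources used here. Groups were taken from the labels.

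The raw counts entered edgeR 4.0.16 (R 4.3.3), with TMM factors and its quasi-likelihood test, as a single fit to the 12 libraries that left 8 residual degrees of freedom. filterByExpr kept 17320 of 54532 rows. Genes were called at p and Benjamini-Hochberg adjusted p of at most 0.05 in 7 comparisons, the 6 pairs of groups and CD8H set against the average of the rest. Levels are CPM on TMM effective library sizes, with a prior count of 2 where logged, and FPKM where genes are compared with each other. The fit was tested on simulated counts. Replicates differed by more than sampling noise (chi-square per degree of freedom 15.7 to 148).

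Members and lists (7 of other pathway genes, 14 of markers, of which the adipocyte list had too few reads) were chosen with earlier results of these data known. Values by tumor are given for the regulators, the 5 genes of smallest p in each arm, genes that stand apart from their arm and 2 genes of other lists, and up to 3 genes of smallest p are named per other list, except that some genes of these lists, and the counts of their lists, are not reported here. Faxdc2 was not found by name. Alternatives were DESeq2 1.42.0, limma 3.58.1 (voom with quality weights, and limma-trend on log2(FPKM + 1) and log2(FPKM + 0.1)), upper-quartile factors, no filter, the compared groups alone, the replicate number as a block, a neuron marker covariate, melanocyte marker scaling, the 9 other tumors as a single group and each library left out.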

Additional observations from a re-analysis of the deposited data

How the results depend on the processing

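The counts given here are of calls in either direction. Against the mean of the 3 other groups the count of genes called was 27 and stayed between 26 and 29 in every setting but the melanocyte marker scaling, which gave 16 (14 lower and 2 higher), and ran from 26 to 29 with a library left out. Against dNK tumors it was 29, with 19 under that scaling and 26 to 29 with a library left out. Against CD8L tumors it was 26, with 6 under that scaling, 0 in the fit of the compared groups alone and 0 to 28 with a library left out. That scaling moved the median of all tested genes from 0.05 to 0.73, and why fewer genes were called under it was not tested. In CD8H against IgG tumors the count of 0 became 21 with DESeq2, 20 with limma voom, 20 with the neuron covariate, 14 and 13 with log2(FPKM + 1) and log2(FPKM + 0.1), 3 without the low-count filter, 1 with upper-quartile factors and 0 to 15 with a library left out. Of all tested genes DESeq2 called 4.51% lower, limma voom 5.32% and the neuron covariate fit 2.58%. The FPKM scales called 2.5 and 1.8% lower, the fit without the filter 0.196% and upper-quartile factors 0.554%. In dNK against IgG tumors the count of 0 became 14 with DESeq2, 23 with limma voom and 11 with the compared groups alone, and stayed at 0 with any library left out. Of all tested genes the first 3 of these settings called 1.19, 3.75 and 0.145% higher. With both CD8H tumor 2 and CD8L tumor 3 left out, a setting chosen after seeing the data, the count in dNK against IgG tumors was 19. Of all tested genes 1.17% were then called lower and 0.73% higher. The count in CD8L against IgG tumors became 2 from 0 there, where 1 of all tested genes was called lower and 2 higher. The causes of these changes were not tested.

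Among single genes in CD8H against the 3 other groups, Tm7sf2 turned from -0.04 to 0.012 with limma voom, 0.0029 with upper-quartile factors, 0.016 and 0.019 on the FPKM scales and 0.68 under the melanocyte scaling, and ran from -0.14 to 0.071 with a library left out. Ebp turned from -0.02 to 0.020, 0.023, 0.023, 0.024 and 0.60 in these 5 settings, to 0.19 with the neuron covariate and 0.12 without the 2 tumors, and ran from -0.22 to 0.14. Only under the melanocyte scaling did Pmvk (0.035), Acss2 (0.44), Fads1 (0.016), Me1 (0.44), Scap (0.37) and Insig2 (0.45) turn. The 18 pairs of the same replicate number in different groups had correlations of -0.36 to 0.73, and those of different numbers -0.73 to 0.70. Such overlapping ranges cannot tell whether the replicate numbers pair the tumors. The tumor numbered 1 had the lowest mitochondrial share and the highest Ebp level of every group. With the replicate block 28, 29, 25 and 3 genes were called in CD8H against the mean, dNK, CD8L and IgG. Of all tested genes 16.1, 19.1, 8.03 and 0.918% were then called lower, against 11.9, 14.6, 5.16 and 0.167% without the block.

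Each group had 3 tumors, so a gene needed a difference well beyond the spread of CD8H and CD8L to pass. Fdps was too shallow, at 21 to 69 reads, for a firm value.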
